A study of Mus musculus with 24 samples.

Results

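The Hox genes are a family of homeodomain transcription factors that lie in 4 chromosomal clusters, and they are described here over 24 arrays of mouse intestine. Members were chosen by symbol alone: every gene called Hoxa, Hoxb, Hoxc or Hoxd followed by a number, with no antisense or other suffix. The arrays gave values for 24 such genes through 32 probe sets, out of 15427 genes and 35066 probe sets in all, whereas RefSeq lists 39 Hox genes in the mouse. On chromosome 6, 8 of the 11 Hoxa genes were described (14 probe sets), on chromosome 11, 7 of the 10 Hoxb genes (7 probe sets), on chromosome 15, 2 of the 9 Hoxc genes (2 probe sets) and on chromosome 2, 7 of the 9 Hoxd genes (9 probe sets). The other Hox genes were not analysed here, so the Hoxc cluster is represented only by Hoxc6 and Hoxc8.

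The study set acute loss of Apc, a negative regulator of Wnt signalling, in the small intestine against colonic polyps of ApcMin mice, which carry a germline Apc mutation. All 18 small intestinal arrays came from mice carrying AhCre, a Cre recombinase under the Cyp1a1 promoter, on an outbred background. These mice received 3 injections of beta-naphthoflavone at 80 mg/kg within 1 day, controls included, and carried either wild-type Apc (AhCre+ Apc+/+) or 2 floxed copies of it (AhCre+ Apcfl/fl), with 3 arrays for each genotype at days 3, 4 and 5. The other 6 arrays were 3 of polyps, each pooled from the colon of 1 ApcMin mouse, and 3 of normal colonic mucosa of ApcMin mice. The labels call 5 of these 6 untreated and do not state the treatment of polyp replicate 1. Each array has its own animal code in the labels, save those of Apcfl/fl mice at day 4, whose labels hold a replicate number alone, and no age is given. The study's methods call the colonic tissues paired, which the labels do not show. The titles of the wild-type arrays of day 4 begin differently from the other wild-type titles ("Ras"), which at that day cannot be told apart from genotype. Normal colon replicate 1 carries another numeric prefix than the remaining colonic arrays, and polyp and colon labels carry different letter codes, which cannot be told apart from tissue.

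Hox proteins give cells a positional address along the body axis. Within a cluster the genes are numbered from the end expressed first and most anteriorly (paralogues 1 to 4) to the end expressed last and most posteriorly (paralogues 9 to 13), and genes with the same number in different clusters are related copies. In the gut both the epithelium and the surrounding mesenchyme use Hox genes during patterning, with the highest-numbered paralogues assigned to the hindgut and anorectal region. Cdx proteins, caudal-type homeodomain factors of the ParaHox family, act upstream of many Hox genes, Pbx, Meis and Pknox proteins are their DNA-binding partners, and Polycomb and Trithorax complexes hold the clusters in repressed or active states.

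To place these genes, the start regions of the paralogues with a probe set at least 2 log2 units above wild-type small intestine in both colonic tissues are shown (for Hoxa9 its second probe set). Of 6 such genes, 4 had an entry in the RefSeq promoter table (build GRCm38.p6, 250 bases before and 50 after each start): Hoxa9 (chr6:52227321-52227620, minus strand), Hoxa10 with 2 starts (chr6:52234890-52235189 and chr6:52240805-52241104, minus strand), Hoxd10 (chr2:74691641-74691940, plus strand) and Hoxd13 (chr2:74667975-74668274, plus strand). Hoxb9 and Hoxb13 are named only. Both strands were searched for TTTATNG, the caudal and posterior Hox type, and for CTTTGNT, a loose form of the Tcf/Lef type. The N in CTTTGNT may be any base, and no match overlapped another. Capitals mark the matches to CTTTGNT.
Hoxa9: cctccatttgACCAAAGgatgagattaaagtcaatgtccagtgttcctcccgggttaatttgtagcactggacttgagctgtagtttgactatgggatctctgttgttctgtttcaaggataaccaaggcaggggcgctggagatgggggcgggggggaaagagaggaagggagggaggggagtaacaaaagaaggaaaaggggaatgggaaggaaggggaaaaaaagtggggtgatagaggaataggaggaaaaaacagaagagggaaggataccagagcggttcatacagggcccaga
Hoxa10, chr6:52234890-52235189: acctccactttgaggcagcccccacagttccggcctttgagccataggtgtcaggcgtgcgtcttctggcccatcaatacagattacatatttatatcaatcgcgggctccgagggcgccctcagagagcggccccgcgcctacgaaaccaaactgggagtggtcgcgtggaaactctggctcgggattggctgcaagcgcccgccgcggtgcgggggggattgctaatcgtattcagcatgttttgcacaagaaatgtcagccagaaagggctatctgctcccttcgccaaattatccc
Hoxa10, chr6:52240805-52241104: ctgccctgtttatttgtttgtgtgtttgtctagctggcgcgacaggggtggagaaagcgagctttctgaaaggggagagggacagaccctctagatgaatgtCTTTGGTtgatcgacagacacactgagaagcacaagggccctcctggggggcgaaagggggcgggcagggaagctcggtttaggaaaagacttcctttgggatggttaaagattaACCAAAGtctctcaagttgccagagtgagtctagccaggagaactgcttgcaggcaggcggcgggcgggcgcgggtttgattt
Hoxd10: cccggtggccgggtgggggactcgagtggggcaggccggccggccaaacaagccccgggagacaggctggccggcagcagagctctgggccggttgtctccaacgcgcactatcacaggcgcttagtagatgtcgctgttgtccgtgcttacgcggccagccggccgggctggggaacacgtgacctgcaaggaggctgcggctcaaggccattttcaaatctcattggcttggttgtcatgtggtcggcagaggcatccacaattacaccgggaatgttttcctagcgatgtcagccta
Hoxd13: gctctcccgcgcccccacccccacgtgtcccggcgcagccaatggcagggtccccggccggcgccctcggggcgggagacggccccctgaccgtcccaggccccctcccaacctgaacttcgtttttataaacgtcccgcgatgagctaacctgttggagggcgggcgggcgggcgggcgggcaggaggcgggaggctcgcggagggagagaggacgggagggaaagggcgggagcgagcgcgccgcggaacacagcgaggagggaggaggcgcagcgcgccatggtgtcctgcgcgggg

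The letters CTTTGNT, on either strand, occurred 1 time in the Hoxa9 window and 2 times in the upstream Hoxa10 window, and not in the other 3. Among 32851 promoter windows of the same length 18.6% held this motif, as did 5 of the 24 windows of Hox genes. TTTATNG was in none of the 5 windows shown, against 10.9% of all windows and 2 of the 24 Hox windows. The Hoxd13 window was 74.3% G and C with 37 CpG dinucleotides, while the Hoxa9 window was 49.7% G and C with 4, beside medians of 52.7% and 7 over all windows. Every CTTTGNT match shown has G at the free letter (CTTTGGT, or ACCAAAG on the other strand), and none is called a Tcf/Lef site. These matches describe the letters only.

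Levels are given as scaled signal, in which each array was set to a geometric mean of 100, and differences as log2(scaled signal + 16), where a low gene's change is understated. Where a gene had several probe sets, the one with the highest mean on that log2 scale over the 24 arrays, called the brightest here, stood for it, and a gene was called changed at an adjusted p under 0.05 (limma, Benjamini-Hochberg over all 35066 probe sets). Background was set per array as the 95th percentile of 31 probe sets of 25 genes not used by the gut (60.7 to 261, median 139.9). By this measure, on the probe set that stood for each, 11 Hox genes lay above background on all 3 arrays of at least 1 group: Hoxa5, Hoxa9, Hoxa10, Hoxa11, Hoxb2, Hoxb7, Hoxb9, Hoxb13, Hoxc6, Hoxd10 and Hoxd13. Another 8 lay at background on all 24 arrays (Hoxa2, Hoxa4, Hoxb1, Hoxb3, Hoxb6, Hoxc8, Hoxd1 and Hoxd3), and Hoxa3, Hoxa13, Hoxd8, Hoxd9 and Hoxd11 passed it on some arrays only. Counting any probe set the number was 12, since another probe set of Hoxa3 lay above background on all 3 arrays of normal colon. With the 99th percentile as background, 4 genes remained above it in any group, and the 95th percentile leans on Oxt and Myl7, whose scaled signals were 229.9 to 561 and 7.99 to 729.

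Normal colon had 8 Hox genes above background (Hoxa5, Hoxa9, Hoxa10, Hoxa11, Hoxb9, Hoxb13, Hoxd10 and Hoxd13) and polyps had 6 (Hoxa9, Hoxa10, Hoxa11, Hoxb9, Hoxb13 and Hoxd13), with Hoxa5 above it in polyps on its second probe set alone. In the small intestine, Hoxb7 and Hoxc6 were above it in wild-type mice at day 3, Hoxa5 and Hoxb2 at day 4 and Hoxa5 at day 5, while Apcfl/fl mice had Hoxa5 at day 3 and no Hox gene at days 4 and 5. The other 20 Hox genes were above background in no small intestinal group. These states depended on each array's own background. In wild-type mice Hoxb2 read 177, 177 and 80.2 at day 3, against backgrounds of 198, 222 and 160. At day 4 it read 159, 170 and 134, against 117, 112 and 130. The second Hoxa5 probe set passed background on 2 of the 18 small intestinal arrays.

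**Figure D1:**
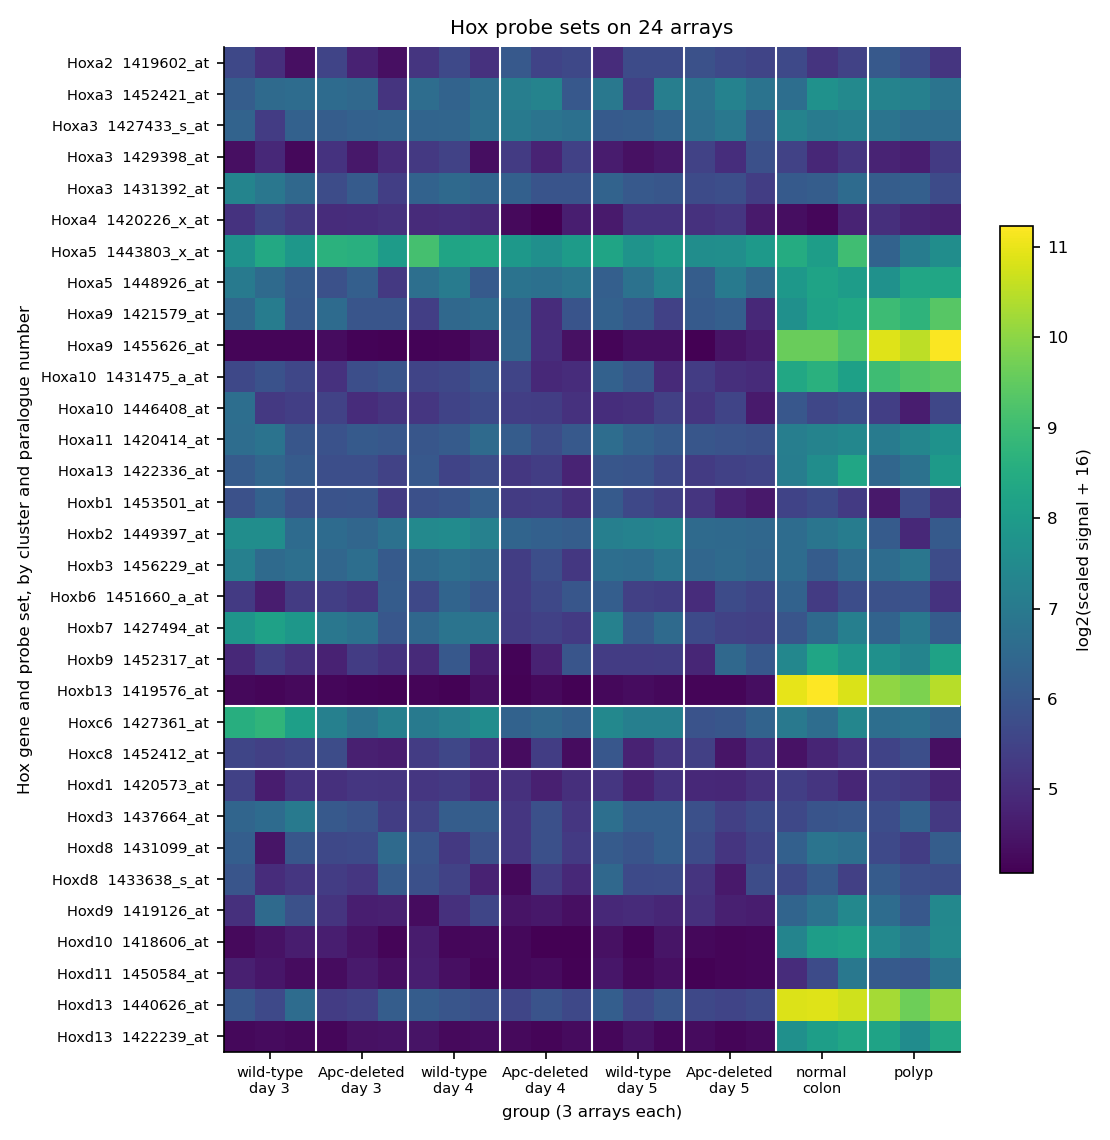
Level of each of the 32 Hox probe sets (rows, by cluster and paralogue number) on each of the 24 arrays (columns, 3 per group), as log2(scaled signal + 16). Bright cells sit at Hoxa9, Hoxa10, Hoxb13 and Hoxd13 in normal colon and polyp, and most rows of paralogues 1 to 4 stay dark across all 8 groups.

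The first comparison asked how Hox levels differed between the colon and the small intestine. All 10 measured paralogues 9 to 13 were higher in normal colon than in wild-type small intestine, by 0.91 to 6.78 on the log2 scale with a median of 2.23. All 10 were at background on every wild-type array, so the size of these differences is not measured, and a fold could be bounded above 1 for 7 of them. Of the 14 paralogues 1 to 8, by contrast, Hoxd8 was higher, Hoxa4 and Hoxc6 were lower and the other 11 passed in neither direction, with a median of -0.32. In all, 11 of 24 Hox genes were higher and 2 lower, where 12.1% of all genes were called higher and 11.3% lower. Tissue here goes with the ApcMin allele, the absence of AhCre and of beta-naphthoflavone and the cohort, which cannot be told apart from it, and bulk tissue cannot separate fewer cells of a type from less RNA per cell.

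Hoxb13, the last gene of its cluster and a factor of the hindgut and prostate, separated the 2 parts of the gut fully. Its scaled signal was 1980.2, 2395 and 1810.2 in normal colon and 1042, 888 and 1394 in polyps. On the 18 small intestinal arrays it was 1.26 to 4.47, far below background on each of them. The difference was at least 13.6-fold for normal colon (adjusted p = 6.56e-20) and at least 7.23-fold for polyps (adjusted p = 8.69e-19), taken as bounds because wild-type small intestine gave no signal above background.

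Hoxd13, which with Hoxa13 patterns the anorectal region and the digits, separated them on both of its probe sets. The brighter one read 1845, 1859 and 1677 in normal colon, 1225, 786 and 1090.5 in polyps and 34.0 to 82.3 in wild-type small intestine (median 46.3). That is at least 11.9-fold for normal colon (adjusted p = 9.74e-15) and at least 6.75-fold for polyps (adjusted p = 2.67e-13). Its second probe set read 186, 256 and 302 in normal colon and 287, 172 and 314 in polyps, against 1.99 to 5.90 over the small intestine. Neither probe set overlapped between colonic and small intestinal arrays. Hoxa13 was dimmer and more variable, with 121, 177 and 299 in normal colon, 70.4, 93.7 and 233 in polyps and 29.9 to 70.4 in wild-type small intestine, with the lowest polyp level with the highest wild-type array. Its difference was 1.71 (SE 0.25, adjusted p = 2.10e-05) for colon, at least 1.23-fold with 2 of 3 colon arrays above background, and 1.10 (SE 0.25, adjusted p = 0.00138) for polyp, where no fold could be bounded.

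Hoxa9, best known as a regulator of blood progenitors, was measured by 2 probe sets. The one that stood for it read 186, 274 and 307 in normal colon and 26.1 to 119.6 in wild-type small intestine, a difference of 1.84 (SE 0.32, adjusted p = 0.000154) and at least 1.66-fold. The other read 755, 761 and 591 in normal colon and 1.83 to 4.67 in wild-type small intestine, at least 4.63-fold (adjusted p = 1.73e-13). Both probe sets thus placed Hoxa9 higher in colon without overlap. Hoxa10, a factor of the uterus and the lumbar skeleton, read 317, 374 and 266 in normal colon against 14.2 to 62.0 in wild-type small intestine, at least 2.10-fold (adjusted p = 5.73e-09). Its second probe set stayed between 7.94 and 84.8 on all 24 arrays and passed none of the tests.

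Hoxd10, which specifies lumbar motor neurons, read 142, 249.6 and 274 in normal colon, 156, 109 and 158 in polyps and 0.851 to 9.38 over the small intestine, and no array of the one tissue reached the other. In normal colon this was at least 1.42-fold (adjusted p = 5.56e-13). Hoxb9, a factor of the thoracic skeleton and mammary gland, read 153, 299 and 211 in normal colon and 188, 142 and 277 in polyps, against 9.63 to 49.8 in wild-type small intestine, at least 1.41-fold (adjusted p = 3.84e-06) and at least 1.29-fold (adjusted p = 3.72e-06).

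The remaining posterior genes were dim. Hoxa11, needed in the forearm and kidney, read 124, 139 and 150.04 in normal colon and 116, 147 and 197 in polyps against 47.5 to 94.8 in wild-type small intestine, a difference of 0.91 (adjusted p = 0.000982) and 1.03 (adjusted p = 0.000132). Set against background these levels bounded no fold above 1. Hoxd11, its partner there, read 15.8, 36.6 and 106 in normal colon and 52.5, 48.6 and 96.9 in polyps against 2.18 to 10.01, and normal colon replicate 3 alone passed background. Hoxd9, a limb factor, read 66.7, 92.8 and 153 in normal colon and 82.2, 49.7 and 154 in polyps against 3.83 to 78.4, so that its groups overlapped. Both passed the test in colon (1.45 with adjusted p = 0.000173 for Hoxd11, 1.61 with adjusted p = 0.000253 for Hoxd9) and in polyp (1.88 with adjusted p = 2.99e-06, 1.45 with adjusted p = 0.000396), again with no fold that could be bounded above 1.

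**Figure D2:**
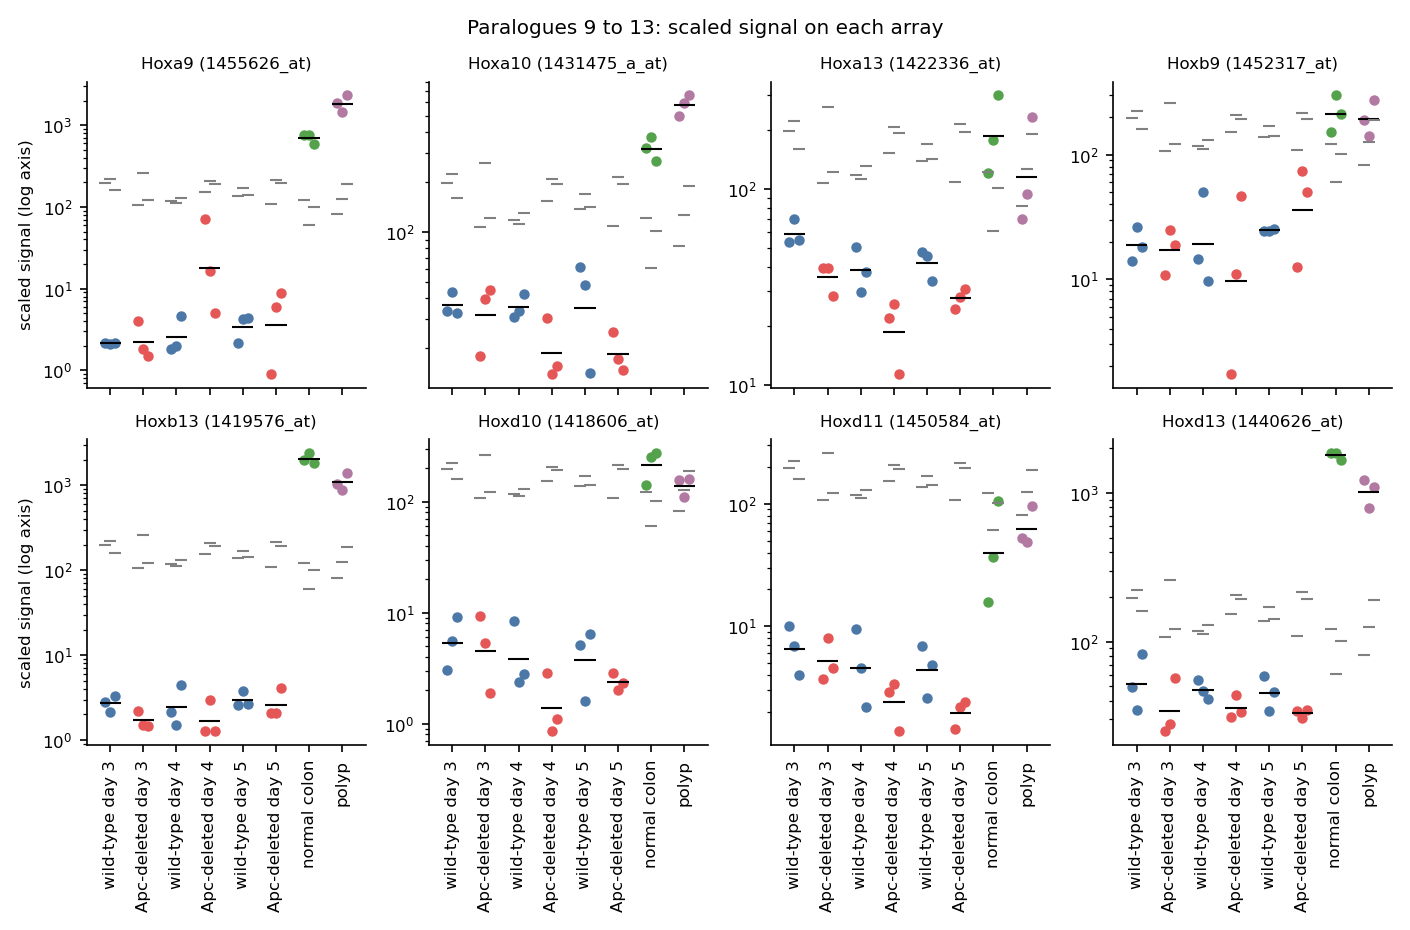
Scaled signal (log axis) of 8 probe sets of paralogues 9 to 13 on each array, by group; points are arrays, black bars are group means taken on the log scale and grey ticks are each array's background. For Hoxb13 the small intestinal arrays lie at 1.26 to 4.47 and the colonic arrays at 888 to 2395.

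Among paralogues 1 to 8, Hoxd8 was higher in normal colon on its brighter probe set, 60.5, 96.9 and 87.9 against 6.47 to 58.4 in wild-type small intestine (0.82, SE 0.28, adjusted p = 0.0445). Its second probe set gave 0.15 (adjusted p = 0.762), and the call was lost under 16 of 35 alternatives. Hoxa4 stayed at background in both tissues, 4.17, 2.56 and 11.6 in normal colon against 7.97 to 31.1 (-0.62, adjusted p = 0.0153). Hoxc6, expressed at the thoracic level of the body axis, read 110.5, 84.0 and 148 in normal colon and 85.2, 90.4 and 70.8 in polyps against 115 to 414 in wild-type small intestine (-0.67, adjusted p = 0.00913 for colon). The colon call for Hoxc6 overlapped the wild-type arrays of days 4 and 5 and was lost under 1 of 35 alternatives. Hoxa3, a gene of thymus and parathyroid formation, was higher in colon on 1 of its 4 probe sets (0.93, adjusted p = 0.0012), with 140.1, 116 and 129 against 24.7 to 87.0.

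Polyps were set against the same wild-type arrays, so both comparisons share them. All 10 paralogues 9 to 13 were higher in polyps, by 1.03 to 5.88 with a median of 2.65 and a fold bounded above 1 for 5 of them, and of the 14 paralogues 1 to 8, Hoxa5, Hoxb1, Hoxb2 and Hoxc6 were lower and none was higher. These 10 higher and 4 lower genes stand beside 19.4% and 20.1% of all genes. Hoxb1, a hindbrain gene at background on every array, read 7.62, 36.7 and 17.5 in polyps against 27.2 to 62.3 (-0.79, adjusted p = 0.00614).

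Tissue markers moved with these differences. Gata4, a factor of the proximal intestine, read 416 to 880.4 in the small intestine and 32.9 to 61.1 in the colonic tissues. Of 7 proximal markers 5 were lower and 1 higher in normal colon, beside 11.3% and 12.1% of all genes. None of 9 smooth muscle genes was at background in normal colon or in wild-type small intestine. In normal colon 6 of them were higher, with a summed level of 13992 to 20292 against 3351 to 11156 in wild-type small intestine, and 5 of 12 fibroblast genes were higher (11287 to 15476 against 5581 to 10859). None of the 12 epithelial genes was at background in any group. In polyps the smooth muscle sum was 2252 to 4856 and the fibroblast sum 13137 to 25054.5. Of 12 fibroblast genes 8 were higher and 1 lower than in wild-type small intestine, beside 19.4% and 20.1% of all genes. In the same comparison 6 of 12 epithelial genes were lower and 1 higher, and 5 of 9 smooth muscle genes were lower and 0 higher. Lower too were 6 of 8 lymphocyte and 5 of 11 nerve and glia genes, while 6 of 11 myeloid genes were higher. Of 7 colon markers 2 were higher and 2 lower. The part of mesenchyme and of the other cell types in the Hox differences was not tested.

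The next comparison set polyps against normal colon, within the colonic arrays. Hoxa9 and Hoxa10 were higher in polyps and Hoxa5, Hoxb2, Hoxb13 and Hoxd13 were lower, while 18 of the 24 Hox genes did not pass the test. Among all genes 7.55% were higher and 8.91% lower. The median over the Hox genes was -0.14, beside -0.01 over all genes. With 3 arrays a side this count was unstable: it was 0 without polyp replicate 1 or without normal colon replicate 3, 1 without normal colon replicate 1 or 2, and 2 without polyp replicate 2.

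Hoxa9 was called higher on both of its probe sets. On the second probe set it read 1866, 1442 and 2324 in polyps and 755, 761 and 591 in normal colon, 2.60-fold higher with no overlap (1.38, SE 0.25, adjusted p = 0.00532), and this call was kept under all 16 alternatives. On the probe set that stood for it, it read 486, 411 and 652 against 186, 274 and 307 (0.97, SE 0.27, adjusted p = 0.0371). Hoxa10, its neighbour in the cluster, read 495, 595 and 661 in polyps against 317, 374 and 266 in normal colon, again without overlap (0.84, SE 0.23, adjusted p = 0.0373). The Hoxa10 call was lost under 8 of 16 alternatives, and the call on the Hoxa9 probe set that stood for that gene under 7. The second Hoxa10 probe set was 0.668-fold in polyps and did not pass. Hoxa11 and Hoxa13, further along the same cluster, did not pass: their differences were 0.12 (95% interval -0.42 to 0.66) and -0.61 (-1.53 to 0.32). Evx1, a homeobox gene next to Hoxa13 at the end of the cluster, was at 95.4 to 294 in polyps and 8.91 to 21.1 in normal colon (2.65, adjusted p = 0.00115).

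In the other direction, Hoxb13 in polyps was 1.87-fold below normal colon (-0.90, SE 0.25, adjusted p = 0.0363), and its highest polyp was under its lowest colon. Hoxd13 was 1.75-fold lower on its brighter probe set (-0.81, SE 0.24, adjusted p = 0.0472), also without overlap, but its second probe set gave 0.03 (-0.60 to 0.67, adjusted p = 0.952). Hoxb2, a hindbrain gene under Hoxb1 control, read 53.8, 14.0 and 53.1 in polyps and 82.0, 99.9 and 119.95 in normal colon (-1.14, adjusted p = 0.0482). Of 16 alternatives, the Hoxb13 call was lost under 6, the Hoxd13 call under 10 and the Hoxb2 call under 8.

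Hoxa5, which acts in the mesenchyme of lung and gut, depended on the probe set. The brighter one read 63.5, 119 and 178 in polyps and 341, 253 and 512 in normal colon (-1.53, SE 0.36, adjusted p = 0.0186), whereas the second read 192, 299 and 300.1 and 219.8, 283 and 246 (0.06, -0.49 to 0.61). Against wild-type small intestine (194 to 539 and 53.3 to 145) the 2 probe sets of Hoxa5 passed the test in opposite directions in polyps, -1.19 (adjusted p = 0.000652) and 1.44 (adjusted p = 8.56e-05). The name of the first probe set carries the suffix _x_at, which Affymetrix gives to probe sets that may hybridise with other sequences, so the direction for Hoxa5 is uncertain.

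Between polyps and normal colon markers of cell types also differed, beside 7.55% of all genes called higher and 8.91% lower. All 9 smooth muscle genes were lower in polyps (summed level 2252 to 4856 against 13992 to 20292), as were 4 of 11 nerve and glia genes (464 to 528 against 964 to 1564), 4 of 8 lymphocyte genes, 4 of 12 epithelial genes (31455 to 47899.7 against 55244 to 72130.5) and 5 of 7 colon markers, 2 of which were at background in polyps. Of the myeloid genes 5 of 11 were higher (11047 to 17787 against 5409.7 to 6871), of the endothelial genes 3 of 9, and of the fibroblast genes 4 of 12 were higher and 3 lower. The part of these cell types in the Hox differences was not tested.

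**Figure D3:**
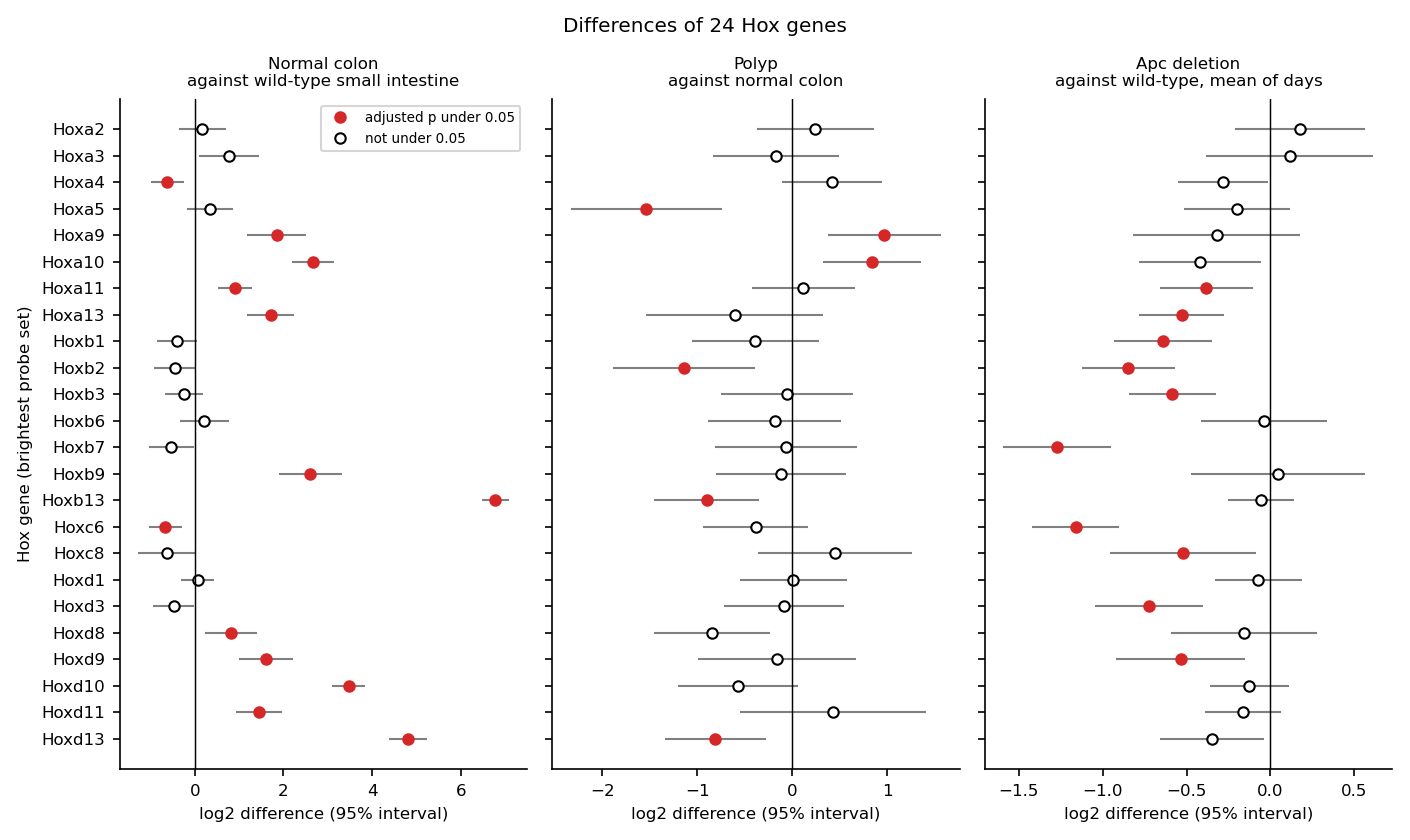
Log2 difference with its 95% interval for the 24 Hox genes (brightest probe set) in normal colon against wild-type small intestine, polyp against normal colon, and Apc deletion against wild-type over the 3 days; filled points have an adjusted p under 0.05. All 10 paralogues 9 to 13 lie to the right in the colon panel, and no Hox gene is called higher in the Apc deletion panel.

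In the small intestine no Hox gene was called higher after Apc deletion on the probe set that stood for it, and 4, 6 and 5 of 24 were called lower at days 3, 4 and 5. Over all genes 10.7%, 14.9% and 20.6% were higher and 7.37%, 9.81% and 12.8% lower on those days. For the mean of the 3 days, 10 Hox genes were lower and none higher, against 24.5% and 29.2% of all genes: Hoxa11, Hoxa13, Hoxb1, Hoxb2, Hoxb3, Hoxb7, Hoxc6, Hoxc8, Hoxd3 and Hoxd9. Median differences over the Hox genes were -0.32, -0.46 and -0.28 at days 3, 4 and 5 and -0.33 for the mean of days, beside medians of 0.01 to 0.03 over all genes.

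Genes at background moved in part the same way. Of the 25 genes not used by the gut, 11 were also called lower, 1 higher and 13 neither for the mean of days, with a median of -0.28, and the spread of log2 signals over probe sets was 2.13 to 2.38 on the Apcfl/fl arrays and 1.96 to 2.19 on the wild-type arrays. Of the 10 Hox genes called lower, Hoxb2, Hoxb7 and Hoxc6 passed background on some wild-type arrays, and the other 7 were at background on all 18 small intestinal arrays. The part of this shift in the Hox differences was not tested.

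Hoxc6 was lower at each day and under every alternative. In wild-type mice it read 361, 414 and 261 at day 3, 115, 134 and 171 at day 4 and 156, 127 and 128 at day 5. In Apcfl/fl mice it read 129.8, 94.5 and 127, then 64.9, 74.5 and 63.1, then 44.2, 47.6 and 65.7. Genotypes did not overlap at any day, with differences of -1.43 (SE 0.21, adjusted p = 0.000493), -0.89 (SE 0.21, adjusted p = 0.00784) and -1.17 (SE 0.21, adjusted p = 0.000676). Over the 3 days the difference was -1.16 (SE 0.12, adjusted p = 1.23e-06). All Apcfl/fl arrays of days 4 and 5 were at background, where no fold could be bounded above 1.

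Hoxb7, a gene of the ureteric bud and trunk, followed the same course. Wild-type arrays read 206, 272 and 215 at day 3, 72.7, 97.0 and 97.1 at day 4 and 134, 52.4 and 77.4 at day 5, and Apcfl/fl arrays 105, 92.1 and 49.1, then 24.2, 28.2 and 22.9, then 35.4, 28.7 and 26.9. Again no day showed overlap, with differences of -1.37 (SE 0.27, adjusted p = 0.00254), -1.35 (SE 0.27, adjusted p = 0.00239) and -1.09 (SE 0.27, adjusted p = 0.00505), and -1.27 for the mean of days (adjusted p = 3.86e-06). Hoxb7 was at background on all Apcfl/fl arrays and on the wild-type arrays of days 4 and 5, so a fold could be bounded only at day 3, at least 1.52-fold.

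Hoxb2 read 177, 177 and 80.2 in wild-type mice at day 3, 159, 170.4 and 134 at day 4 and 129, 137 and 146 at day 5, and in Apcfl/fl mice 79.8, 69.9 and 92.3, then 66.9, 61.8 and 56.9, then 76.9, 75.8 and 72.9. At day 3 wild-type replicate 3 lay among the Apcfl/fl arrays and the difference did not pass (-0.67, adjusted p = 0.0519), while days 4 (-1.13, adjusted p = 0.00287) and 5 (-0.75, adjusted p = 0.0196) did. All Apcfl/fl arrays were at background for Hoxb2, and no fold could be bounded above 1. Its neighbours Hoxb1 and Hoxb3 were lower for the mean of days by smaller amounts, -0.64 (adjusted p = 0.000974) and -0.59 (adjusted p = 0.000767). Hoxb3, a gene of the hindbrain and pharyngeal arches, read 25.4, 39.1 and 21.8 on the Apcfl/fl arrays of day 4 and 76.0 to 131.09 over all wild-type arrays. Of the 5 Hoxb genes numbered 7 or lower, only Hoxb6 did not pass for the mean of days.

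**Figure D4:**
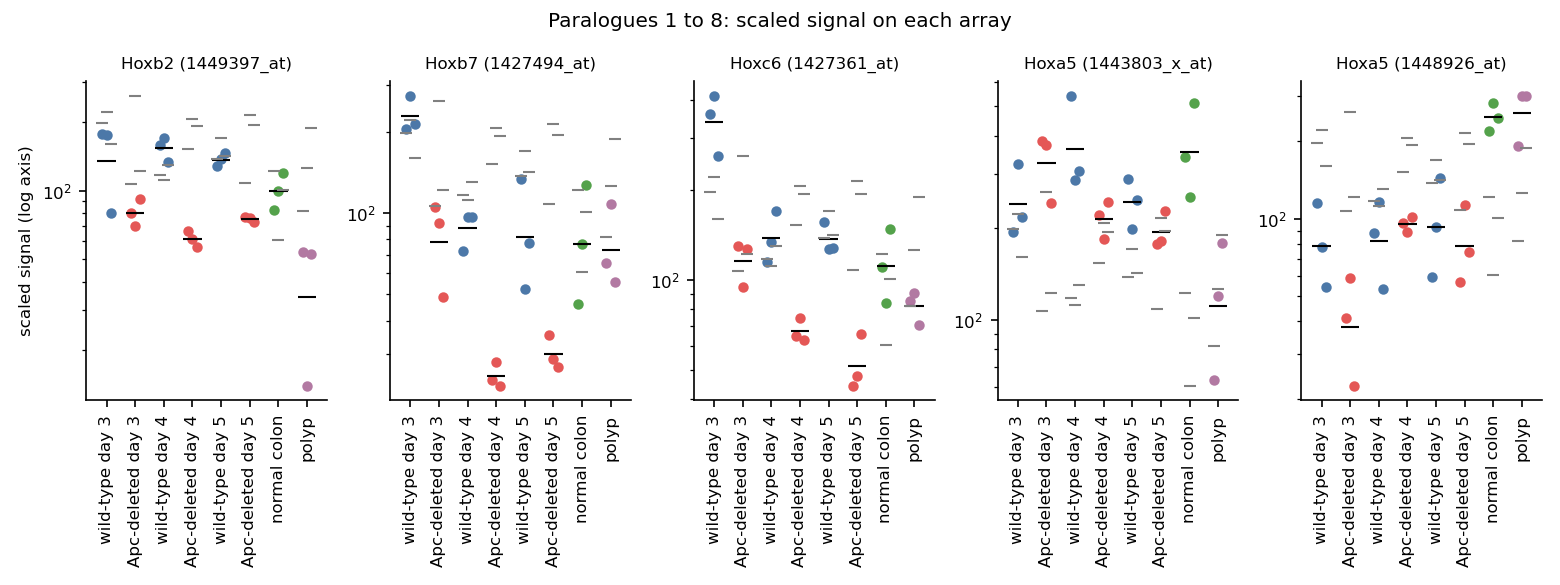
Scaled signal (log axis) of Hoxb2, Hoxb7, Hoxc6 and both Hoxa5 probe sets on each array, by group; points are arrays, black bars are group means taken on the log scale and grey ticks are each array's background. Hoxb7 and Hoxc6 are lower on all Apcfl/fl arrays than on the wild-type arrays of the same day, and polyp lies below normal colon on the first Hoxa5 probe set and among it on the second.

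The other Hox genes called lower were at background on both sides. Over 9 wild-type and 9 Apcfl/fl arrays, Hoxd3, a gene of the cervical vertebrae, ranged over 28.7 to 115 (median 58.1) and 20.6 to 51.2 (median 35.4), a difference of -0.72 (adjusted p = 0.000801). Hoxa13 ranged over 29.9 to 70.4 (median 47.6) and 11.4 to 39.6 (median 28.2), -0.53 (adjusted p = 0.00149). Hoxb1 ranged over 27.2 to 62.3 and 7.71 to 44.6. Hoxa11, Hoxc8 and Hoxd9 had differences of -0.38, -0.52 and -0.54 with adjusted p of 0.0221, 0.0435 and 0.0219. These ranges of the 2 genotypes overlapped for each of these 6 genes, and the Hoxc8 call was lost under 20 of 28 alternatives.

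Hoxb13, Hoxd13 and Hoxd10, high in the colon, did not pass the test after Apc deletion. Hoxb13 read 1.51 to 4.47 in wild-type and 1.26 to 4.08 in Apcfl/fl mice (-0.06, 95% interval -0.25 to 0.14), Hoxd13 34.0 to 82.3 and 24.9 to 57.3 (-0.35, -0.66 to -0.04) and Hoxd10 1.61 to 9.18 and 0.851 to 9.38 (-0.13, -0.36 to 0.11). The second probe set of Hoxa9 was higher at day 4 (1.06, SE 0.33, adjusted p = 0.0309), from 71.5, 16.3 and 5.08 against 1.83, 1.98 and 4.67, all at background. That call was lost under 7 of 28 alternatives, among them leaving out Apcfl/fl replicate 1 of day 4 (adjusted p = 0.181) or any 1 of the wild-type arrays of day 4, and the probe set that stood for Hoxa9 gave -0.40 (adjusted p = 0.518). A further 2 probe sets of Hoxa3 moved in opposite directions for the mean of days, 0.49 (adjusted p = 0.0218) and -0.67 (adjusted p = 0.000502), and its brightest did not pass (0.11, adjusted p = 0.714). By single days, the former was also called higher at day 5 (0.93) and the latter lower at day 3 (-1.15). Both were at background on all 18 small intestinal arrays.

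Some markers of other cells were lower in the same arrays, beside 24.5% of all genes called lower and 29.2% called higher. For the mean of days 6 of 11 nerve and glia genes were lower (summed level 629 to 909.7 against 898 to 1523), as were 7 of 11 myeloid and 6 of 8 lymphocyte genes. Lower too were 3 of 12 fibroblast and 2 of 9 endothelial genes, near the share of all genes, but 0 of 9 smooth muscle genes. The 3 of 12 epithelial genes called higher also lay near the share of all genes. Of the ileal markers 3 of 6 were lower and of the colon markers 5 of 7, while of the proximal markers 3 of 7 were higher and 1 lower. The part of these cells, and of the length of gut sampled, in the Hox differences was not tested.

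Across days, wild-type arrays differed in Hoxb7 (adjusted p = 0.0107) and Hoxc6 (adjusted p = 0.00482) by limma's F test, where 3.62% of all genes passed. Both were highest at day 3, and without wild-type day 3 replicate 2 only 1 of these calls remained. Pdx1, a factor of the duodenum, read 55.0 to 82.9 at day 3, 361 to 1201 at day 4 and 68.5 to 671 at day 5 in the same mice, and the summed level of 7 proximal markers was 12919.9 to 14639, 16060 to 22135 and 11525 to 12304. The part of the sampled position in the Hoxb7 and Hoxc6 differences between days was not tested. Apcfl/fl arrays differed across days in Hoxb3 (adjusted p = 0.00966), Hoxb7 (adjusted p = 0.0132) and Hoxc6 (adjusted p = 0.019), where 10.2% of all genes passed, and 1 remained without Apcfl/fl day 3 replicate 1. Whether the effect of Apc deletion itself differed between days was called for 0 of 24 Hox genes by limma, with 2 at an unadjusted p under 0.05, where 0.130% of all genes passed.

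The polyp effect (polyp minus normal colon) was set against the mean Apc deletion effect (Apcfl/fl minus wild-type). This tested whether the same gene moved differently in tumour and in acute loss. These effects also differ in gut segment, AhCre, beta-naphthoflavone, cohort and kind of Apc mutation, which cannot be told apart from tumour against acute loss. Hoxa10 (1.26), Hoxb7 (1.20) and Hoxc6 (0.78) differed with the larger value in polyps and Hoxa5 (-1.34) and Hoxb13 (-0.85) with the smaller, 3 and 2 genes where 7.10% and 10.7% of all genes passed. Adjusted p were 0.0114, 0.0208, 0.0396, 0.0133 and 0.00727. Hoxb7 and Hoxc6, which fell after Apc deletion, had polyp effects of -0.07 (-0.81 to 0.68) and -0.38 (-0.93 to 0.17). Conversely Hoxa10, which was higher in polyps, read 14.2 to 62.0 in wild-type small intestine and 14.0 to 45.1 after Apc deletion (-0.42, adjusted p = 0.0528), at background on all 18 arrays.

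Genes that act with or on the Hox clusters were described from lists. Of 7 measured partner genes, Pknox1 (0.99, adjusted p = 0.000466) and Pbx3 (0.67, adjusted p = 0.000582) were higher and Pknox2 (-0.87) and Meis1 (-0.46) lower after Apc deletion for the mean of days. These counts lay near the 29.2% and 24.5% of all genes called higher and lower. Pbx3 was higher in normal colon than in wild-type small intestine (0.93) and lower in polyps than in normal colon (-0.83, adjusted p = 0.0418), with 73.6 to 75.2 against 111 to 185.

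Of 13 measured upstream and ParaHox genes, Cdx1 (0.70, adjusted p = 0.00215) and Cdx2 (0.48, adjusted p = 0.004), intestinal master regulators, were higher and 6 lower after Apc deletion, among them Aldh1a1 (-1.25) and Aldh1a3 (-0.88), which make retinoic acid. Over all genes 29.2% were higher and 24.5% lower. In polyps both Cdx genes lay below normal colon: Cdx2 read 73.3 to 157 against 411 to 857 (-2.29, adjusted p = 0.00182), and Cdx1 273 to 549.9 against 880.1 to 1133 (-1.51, adjusted p = 0.008). Aldh1a1 was lower in polyps (-3.40) while Evx1, the retinoic acid receptor Rarb (1.66) and Aldh1a3 (1.46) were higher, so that 3 of 13 rose and 3 fell, beside 7.55% and 8.91% of all genes.

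Of the Polycomb and Trithorax genes, 14 of 24 were higher and 0 lower after Apc deletion for the mean of days, where 29.2% and 24.5% of all genes were, with a median of 0.49 beside 0.01 over all genes. Bmi1, a subunit of Polycomb complex 1, was higher by 1.36 (adjusted p = 2.84e-07), and of complex 2, the methyltransferase Ezh2 by 1.22 (adjusted p = 2.33e-05), Eed by 1.12 (adjusted p = 7.07e-07) and Rbbp4 by 1.07 (adjusted p = 4.01e-06). In polyps 4 of 24 were higher than in normal colon, Ezh2 (1.31), Kdm6b (1.31), Bmi1 (1.09) and Cbx2 (0.99), and none lower, beside 7.55% and 8.91% of all genes. Whether these changes and those of the Hox genes are linked was not tested.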

How the data were processed

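RNA of 24 mouse samples was hybridised to Affymetrix MOE430_2 arrays, 1 sample per array. The authors deposited 1 value per probe set and array, a standardized score: the natural log of the signal minus the array's mean, divided by its SD. How the signal itself was computed is not given in the sources used. Both deposited tables held the same 842640 values, and 0 columns of per-sample values were left unused.

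A linear or log2 unit had been planned for. Because the low signals fell on steps of 0.1 with a floor of 1 (tolerance 0.1 steps, 100% of low values on every array), the signal could be recovered from the deposited scores. It was scaled to a geometric mean of 100 over 35066 probe sets (44 control probe sets left out) and tested as log2(signal + 16) with limma 3.58.1 in R 4.3.3. The SD divided out by the authors was 1.87 to 2.38 log2 units and the geometric mean signal 69.6 to 176 before scaling. The 18 small intestinal arrays entered one fit with a mean per genotype and day, the 6 colonic arrays another, and comparisons across tissues all 24. Tests were two-sided with Benjamini-Hochberg adjustment. The fits were tested on simulated data. With 3 arrays per group, their number limits the precision. The p-values set differences against the spread of arrays within groups, pooled over the groups of a fit.

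Probe sets were named from GEO's platform table (769 with several symbols stayed unnamed). Some items are not reported here. All other measured Hox genes were named, with values for those past the threshold, and up to 4 members of each list by size of difference. A bound ("at least") sets the brighter group's mean against background where every array of the dimmer group was below it. Members and lists were chosen with earlier results of these data known. Alternatives changed the normalization, offset, filter, variance model, probe set rule, arrays fitted and background level, and left out each array in turn.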

Additional observations from a re-analysis of the deposited data

Results flagged for a closer look

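For 5 Hox genes the polyp effect (polyp minus normal colon) and the Apc deletion effect (Apcfl/fl minus wild-type, mean of days) differed by limma's test of the difference itself at an adjusted p under 0.05. The difference was 1.26 for Hoxa10, 1.20 for Hoxb7 and 0.78 for Hoxc6, with the polyp effect the larger. It was -1.34 for Hoxa5 and -0.85 for Hoxb13, with the polyp effect the smaller. That is 3 and 2 of 24 Hox genes, where 7.10% and 10.7% of all genes passed in these directions. Hoxb13 and Hoxa10 lay below background on all 18 small intestinal arrays, so their Apc deletion effects were taken between values at background. Hoxb7 lay below it on all polyp arrays and 15 of 18 small intestinal arrays. It lay above it on 2 of 3 normal colon arrays and on all 3 wild-type arrays of day 3. The Hoxa10 call was lost with averaged probe sets and on the standardized values, and the Hoxb7 call without polyp replicate 2 or normal colon replicate 1 or 2. Of 35 alternatives, the Hoxc6 call was lost under 11, the Hoxa5 call under 3 and the Hoxb13 call under 2. For Hoxa5 the second probe set gave 0.33 (adjusted p = 0.562). Polyps also differed from normal colon in smooth muscle markers (9 of 9 lower), and the part of this in the differences was not tested. Gut segment, AhCre, beta-naphthoflavone, cohort and kind of Apc mutation differ between the effects as well and cannot be told apart from tumour against acute loss.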

How the results depend on the processing

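No paired analysis was possible because replicate numbers were given in accession order in all groups but 1, and each colonic array carries its own animal code, although the study's methods describe polyps and normal colon as paired tissue. Of 76 comparisons called for a Hox probe set, 43 were kept under all alternatives run and 2 reversed, both when all probe sets of a gene were averaged: Hoxa3 for the mean of days (0.067) and Hoxa5 in polyps against wild-type small intestine (0.12). Counts of Hox genes called moved in these cases. With array weights the count was 2 at day 3, 11 for polyp against normal colon and 9 for the polyp effect against the Apc deletion effect. With an offset of 1 it was 0 for polyp against normal colon and 5 for Apcfl/fl arrays across days, and with averaged probe sets 3 and 5. On the deposited standardized values it was 3 for polyp against normal colon and 2 for the difference of effects. Fitting only the 6 arrays of day 3 gave 2. Leaving out dim probe sets, which tests fewer genes and keeps some only through the wild-type groups where they were high, gave 3 both at day 5 and over the mean of days. With days 3 and 5 only, an alternative chosen after seeing the data because of the day 4 titles, the mean of days gave 7. The 99th percentile as background left 4 genes above it. Other causes were not tested.

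Leaving out each array in turn gave 2 to 4 calls at day 3 (2 without Apcfl/fl replicate 3 or wild-type replicate 2), 4 to 8 at day 4, 2 to 5 at day 5 (2 without Apcfl/fl replicate 3, 3 without wild-type replicate 1), 8 to 11 for the mean of days, 0 to 4 for polyp against normal colon, 10 to 13 for normal colon and 13 to 16 for polyp against wild-type small intestine, 3 to 7 for the difference of effects (3 without polyp replicate 1 or 2 or normal colon replicate 1 or 2), 1 to 3 across wild-type days, 1 to 4 across Apcfl/fl days, 0 for the effect across days and 11 to 14 genes above background.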

Other observations

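Antisense transcripts at the Hox clusters were measured by 3 probe sets that are no members of the gene set. Hoxa11os, antisense to Hoxa11, read 263 to 395 in normal colon, 129 to 292 in polyps and 1.42 to 41.3 over the 18 small intestinal arrays. Hoxb5os read 98.98 to 155 in normal colon, 23.7 to 42.9 in polyps, 23.4 to 162 in wild-type and 2.25 to 39.9 in Apcfl/fl small intestine, while Hoxb5 itself was not analysed here. Hoxd3os1 read 10.8 to 61.9 over all 24 arrays.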
